A study of Mus musculus with 23 samples.

Results

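The kinesin motor genes were taken from the count table of a study of mouse testis maturation in vivo and in cultured testis explants. Members were all protein-coding genes whose symbol begins with Kif followed by a digit, which gave 38 of the 27466 genes listed. The same letters matched 2 further entries that are not members: Kif16bos, an RNA antisense to Kif16b with 514 counts in all columns, and Kif4-ps, a transcribed pseudogene of Kif4 with 12317 counts, which can share reads with Kif4. By their known roles, the members were divided into 11 mitotic kinesins, 6 spermatid kinesins of the flagellum, manchette or intraflagellar transport, 3 other kinesins of cilia and centrioles, 12 cargo transport kinesins and 6 others. Kif2a and Kif2b, relatives of the mitotic Kif2c, were placed among the others, so they are in neither the mitotic nor the spermatid sums below.

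All tissue came from wild-type CD-1 mice. Testes taken in vivo came from mice at 6.5 days postpartum (dpp), at 10.5 dpp, at 22.5 dpp or at 36.5 dpp, and part of the youngest had been frozen by controlled slow freezing (CSF) and thawed. Explants of 6.5 dpp testes were cultured for 4, 16 or 30 days (D4, D16, D30), so that D4 matches 10.5 dpp, D16 matches 22.5 dpp and D30 matches 36.5 dpp, in a serum-replacement medium that received retinol at intervals, and the D30 explants included tissue that had been frozen. Explant fragments were pooled for each RNA sample, and the necrotic centre was cut away before extraction, so the D4, D16 and D30 libraries hold the outer part of the explants only.

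Kinesins are motor proteins that burn ATP to walk along microtubules or to shorten them. Mitotic kinesins build the spindle, move chromosomes and close the cleavage furrow, and they serve dividing spermatogonia and the meiotic divisions alike. Other kinesins carry cargo along the flagellum and along the manchette, the microtubule skirt that shapes the spermatid head, and conventional kinesins move vesicles and organelles in most cells. The question put to the data was how the balance of these groups moved over the first wave of spermatogenesis, and whether cultured explants followed it.

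The fit used 21 libraries. The testes gave 4 libraries of 6.5 dpp (1 fresh, 3 CSF), 3 of 10.5 dpp, 3 of 22.5 dpp and 2 of 36.5 dpp, and the explants gave 3 of D4, 2 of D16 and 4 of D30 (3 fresh, 1 CSF). Totals ran from 28351546 to 69029328 counts. Fresh replicates 2 and 3 of 6.5 dpp held the same count in all genes, so they entered as a single library (n = 1). The library labelled 6.5 dpp fresh replicate 1 was left out, because its Spearman correlation over all genes was 0.985 with D16 replicate 1 and 0.928 with 6.5 dpp fresh replicate 2. Of the libraries kept, 6.5 dpp CSF replicate 3, D16 replicate 2 and 22.5 dpp replicate 2 stood apart from their groups in several kinesins, and values without them are given below. Summed markers of spermatids (10 genes) ran from 5.62 to 11.2 CPM (counts scaled to a library total of 1e6) in the 6.5 dpp libraries. They ran from 127 to 387 CPM in those of 22.5 dpp and from 20853 to 26567 CPM in those of 36.5 dpp, against 40.5 to 257 CPM for D16 and 539 to 2343 CPM for D30, and no marker of that list was at the detection floor in all libraries of a stage. In bulk tissue, fewer cells of a type and less RNA per cell cannot be told apart, which holds for every value below.

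Promoter windows were available for 31 of the 38 members, from RefSeq on build GRCm38.p6. Each covers 250 bases before a start site and 50 after it. These members had 35 windows, and the first listed was used for each gene. For some members, among them Kif14, Kif2c, Kif27, Kif3a and Kif9, the start site used lay inside the gene and not at its outer end. They were searched on both strands for 4 short motifs. The cell cycle homology region (CHR), TTTGAA, is known from genes expressed in dividing cells, and the CCAAT box, CCAAT, from many of the same promoters. The CRE, TGACGTCA, is the site of the CREB and CREM factors, and GTTGCC is part of the X-box bound by RFX factors of ciliated cells. The CHR letters were in 9 of 10 mitotic windows, against 16.5% of the 17492 windows of protein-coding genes. They were in 1 of 6 spermatid windows and in 0 of 8 cargo transport windows. The matches of Kif14 and Kif2c, both mitotic, and of Kif27, the spermatid match, were in windows that lay wholly inside the gene. The partial X-box was in 3 of 6 spermatid windows, 2 of 10 mitotic windows and 12.7% of all windows. Of the 3 spermatid windows, that of Kif3a lay wholly inside the gene. The CCAAT letters were in 6 of 10 mitotic and 4 of 6 spermatid windows against 39.0% of all, and the CRE in 1 mitotic, 1 spermatid and 1 cargo transport window against 2.34% of all. A match is a description of the letters, not a binding site.

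The windows of 2 mitotic kinesins that fell with age, 2 spermatid kinesins that rose and Kif2b are shown, with all matches to the 4 motifs in capitals and the strand read 5′ to 3′. Kif11 (chr19:37376132-37376431, plus strand) has CCAAT reversed and CHR reversed close to the start, and Kif4 (chrX:100625815-100626114, plus strand) has CCAAT on both strands and CHR just after the start. Kif17 (chr4:138262001-138262300, plus strand) has the CRE followed by the partial X-box, Kif9 (chr9:110476708-110477007, plus strand) the partial X-box only, and Kif2b (chr11:91577506-91577805, minus strand) CCAAT only.
Kif11: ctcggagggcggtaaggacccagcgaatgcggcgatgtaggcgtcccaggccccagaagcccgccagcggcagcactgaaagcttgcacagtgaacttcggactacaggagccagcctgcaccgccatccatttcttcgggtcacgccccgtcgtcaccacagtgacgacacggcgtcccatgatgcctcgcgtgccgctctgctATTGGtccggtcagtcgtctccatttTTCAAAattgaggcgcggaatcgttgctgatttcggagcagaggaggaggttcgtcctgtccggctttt
Kif4: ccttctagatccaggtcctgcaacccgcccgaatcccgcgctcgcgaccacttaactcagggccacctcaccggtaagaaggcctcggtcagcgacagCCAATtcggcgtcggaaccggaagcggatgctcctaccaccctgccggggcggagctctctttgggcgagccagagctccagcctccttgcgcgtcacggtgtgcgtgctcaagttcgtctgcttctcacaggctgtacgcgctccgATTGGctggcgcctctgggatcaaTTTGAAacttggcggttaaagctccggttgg
Kif17: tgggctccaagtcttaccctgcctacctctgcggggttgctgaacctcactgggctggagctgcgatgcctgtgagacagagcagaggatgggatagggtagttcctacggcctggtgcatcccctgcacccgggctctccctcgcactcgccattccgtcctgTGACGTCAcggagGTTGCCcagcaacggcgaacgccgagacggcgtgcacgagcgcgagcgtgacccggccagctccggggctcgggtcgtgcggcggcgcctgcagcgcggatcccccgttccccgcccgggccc
Kif9: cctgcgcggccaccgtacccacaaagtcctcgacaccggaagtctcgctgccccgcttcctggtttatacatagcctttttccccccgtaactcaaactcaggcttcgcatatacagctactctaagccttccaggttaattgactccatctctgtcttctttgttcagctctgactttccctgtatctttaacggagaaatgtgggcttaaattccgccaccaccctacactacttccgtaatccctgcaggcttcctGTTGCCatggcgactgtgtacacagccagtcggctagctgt
Kif2b: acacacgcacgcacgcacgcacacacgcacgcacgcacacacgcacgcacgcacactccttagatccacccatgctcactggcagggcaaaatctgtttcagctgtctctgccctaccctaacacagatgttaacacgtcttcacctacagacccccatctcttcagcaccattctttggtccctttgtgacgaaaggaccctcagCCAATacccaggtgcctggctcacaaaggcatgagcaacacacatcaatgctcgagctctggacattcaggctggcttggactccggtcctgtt

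Levels are given as CPM on the library total. Per kilobase of exon, the scale on which genes can be set side by side, the highest kinesin at 6.5 dpp was Kif5b, the ubiquitous heavy chain of conventional kinesin, at 37.8 CPM per kb, followed by Kif20a at 27.6 and Kif2c at 21.9, both mitotic. At 36.5 dpp the order was Kif2b at 281 CPM per kb, Kif9 at 94.5, Kif17 at 83.4, Kif2c at 65.9 and Kif27 at 63.6, while Kif5b stood at 4.14. At D30 the highest were Kif3b at 43.0 CPM per kb, Kif2b at 38.6, Kif9 at 35.7 and Kif5b at 31.0, and the neighbours in this order overlapped between libraries. At the low end, Kif12 had 3 counts or fewer in each library, Kif28 was at that floor at D16, and Kif26b had stage means of 0.0560 to 0.173 CPM per kb.

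**Figure D1:**
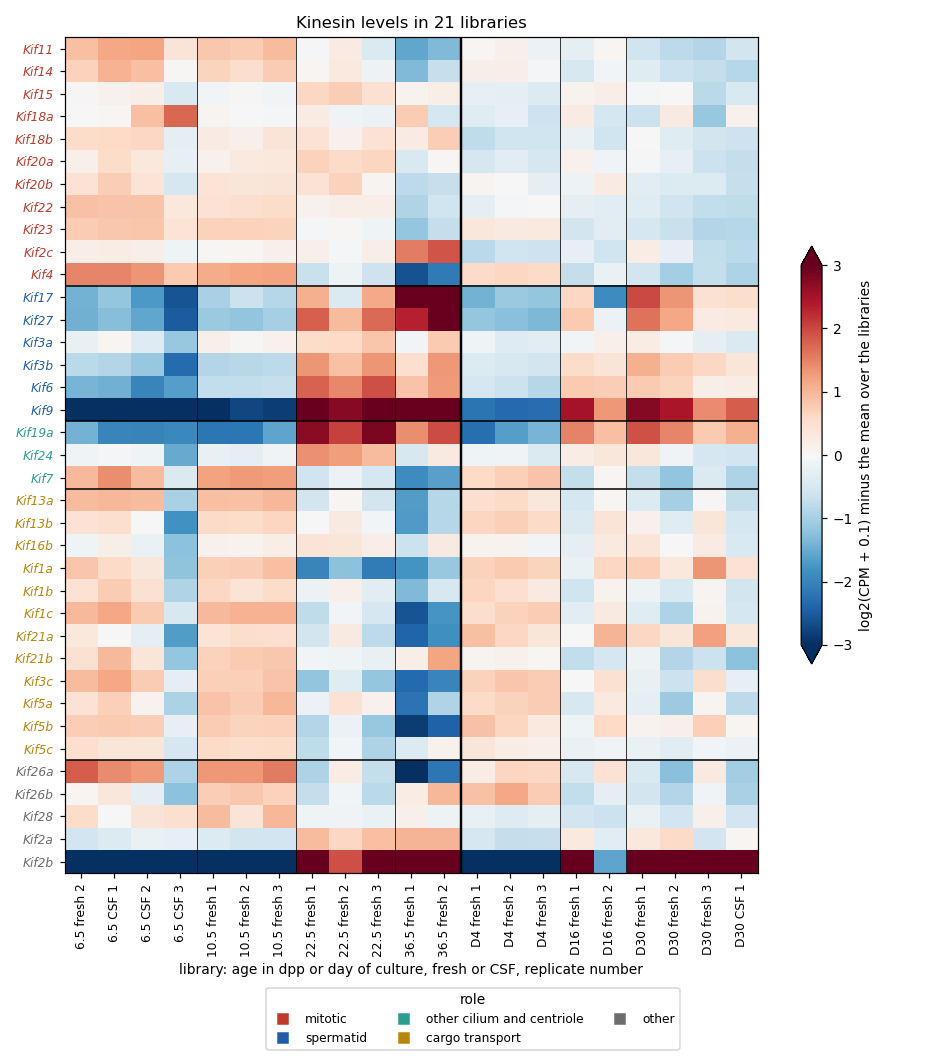
Each row is a kinesin, coloured by role, and each column a library, with the 4 in vivo ages left of the heavy line and the culture days right of it, and colour shows log2(CPM + 0.1) minus the mean of the row over the 21 libraries, cut at 3 either way. Kif12, which is at the floor everywhere, is left out. Most mitotic and cargo transport rows turn from red to blue along the in vivo ages, and the spermatid rows turn the other way. At D16 and D30 most spermatid rows are paler than at 22.5 and 36.5 dpp. Most cargo transport rows are less blue at D30 than at 36.5 dpp. Most mitotic rows are no less blue at D16 than at 22.5 dpp, and at D30 they differ from 36.5 dpp in either direction.

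The balance of mitotic to spermatid kinesins was followed by their summed levels and by the ratio of the sums. The summed CPM of the 11 mitotic kinesins was 841 ± 98.2 (SD, n = 4) at 6.5 dpp, 773 ± 18.2 (n = 3) at 10.5 dpp, 710 ± 29.7 (n = 3) at 22.5 dpp and 685 ± 73.8 (n = 2) at 36.5 dpp. Over the same ages the 6 spermatid kinesins summed to 154 ± 51.7, 210 ± 4.59, 989 ± 218 and 1525 ± 549 CPM. In culture, the mitotic sum was 525 ± 22.2 at D4 (n = 3), 522 ± 15.5 at D16 (n = 2) and 431 ± 74.9 at D30 (n = 4), and the spermatid sum 209 ± 11.7, 513 ± 129 and 620 ± 193 CPM. At 6.5 dpp, 10.5 dpp and D4, Kif3a and Kif3b made up most of the spermatid sum. They had 80.9 to 87.8 and 78.8 to 84.6 CPM at 10.5 dpp, and 60.6 to 71.9 and 99.1 to 109 CPM at D4. At those stages the ratio thus mainly sets the mitotic kinesins against Kif3a and Kif3b. On the library total, every cultured library had a lower mitotic sum than every in vivo library of the fit. These sums depend on the scaling between libraries, whereas the ratio within a library does not. TMM factors of 0.645 and 0.661 would raise both sums at 36.5 dpp against the other stages. Scaled in that way, the mitotic sum would be highest at 36.5 dpp, so its fall with age holds on the library total only.

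As a log2 ratio of the sums, mitotic over spermatid, the values in vivo were 2.52 ± 0.43 at 6.5 dpp, 1.88 ± 0.02 at 10.5 dpp, -0.45 ± 0.38 at 22.5 dpp and -1.11 ± 0.38 at 36.5 dpp. In culture they were 1.33 ± 0.09 at D4, 0.05 ± 0.32 at D16 and -0.49 ± 0.20 at D30. At D4 all 3 libraries (1.23 to 1.42) lay below the 3 of 10.5 dpp (1.87 to 1.90), and at D16 replicate 1 (-0.18) lay inside the range of 22.5 dpp (-0.73 to -0.02) and replicate 2 (0.28) above it. The D30 libraries (-0.75 to -0.27) lay above both of 36.5 dpp (-1.38 and -0.85). Kif2b, which is in neither sum, had 544 and 718 CPM at 36.5 dpp and 54.7 to 135 CPM at D30. Counted as mitotic, it would raise the ratio most at 36.5 dpp, so the place of D30 above 36.5 dpp holds for this grouping only. No test was run on this ratio. The left-out 6.5 dpp library had -0.41, inside the D30 range and outside the range of 2.19 to 3.12 of the other 6.5 dpp libraries.

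**Figure D2:**
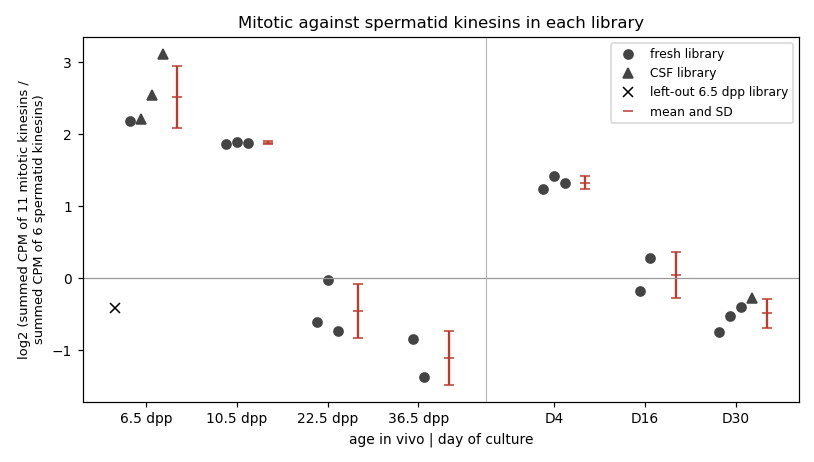
The log2 ratio of the summed CPM of the mitotic to that of the spermatid kinesins (vertical axis) is plotted for each library by age in vivo and day of culture, where circles are fresh and triangles CSF libraries, the red bar is mean and SD, and the cross is the left-out 6.5 dpp library. The ratio falls from 2.52 at 6.5 dpp to -1.11 at 36.5 dpp, and from 1.33 at D4 to -0.49 at D30.

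Between libraries, differences were tested with edgeR's quasi-likelihood F test with Benjamini-Hochberg adjustment over the 19255 genes that passed the filter on low counts, 37 of the 38 kinesins among them (Kif12 did not pass), and a gene was called at an adjusted p under 0.05. The log2 differences use TMM scaling, with factors of 0.877 to 1.15 outside 36.5 dpp, and so are not the log of the CPM ratio. Scaling by library size alone moved the median log2 difference of all genes from -0.13 to -0.63 for 36.5 against 22.5 dpp and from -0.03 to 0.60 for D30 against 36.5 dpp, and directions that depend on it are named below. Standard errors (SE) come from the same fit.

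Between 6.5 and 10.5 dpp, 0 kinesins were called in either direction by edgeR, where 0.675% of all genes were called higher and 0.467% lower. Unadjusted p was under 0.05 for 3 kinesins with edgeR, and DESeq2 called 1 kinesin higher. The medians were 0.22 on the log2 scale over the kinesins and -0.01 over all genes.

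The step from 10.5 to 22.5 dpp, when the first spermatocytes pass through meiosis and round spermatids appear, moved 25 of 37 kinesins. Called higher were 12 (33.6% of all genes) and called lower 13 (27.9%). All 6 spermatid kinesins were higher, with a median log2 difference of 2.56 against 0.06 over all genes, 6 of 12 cargo transport kinesins were lower and none higher (median -0.72), and the mitotic kinesins divided into 2 higher and 3 lower of 11 (median 0.28). With scaling by library size alone, the calls were 10 higher and 15 lower. Summed spermatocyte markers (8 genes) rose from 297 to 388 CPM at 10.5 dpp to 2794 to 2935 at 22.5 dpp, with 8 of 8 called higher, and 9 of 10 spermatid markers were called higher. Beside the falling cargo transport kinesins, 7 of 8 spermatogonia markers were lower (1392 to 1439 CPM in sum at 10.5 dpp against 308 to 536 at 22.5 dpp), as were 6 of 8 Sertoli cell markers, with 1 higher (4211 to 4451 against 1352 to 2181 CPM), and 4 of 4 endothelial markers (179 to 200 against 37.6 to 59.8 CPM). The part of these markers in the kinesin differences was not tested.

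Kif9, a kinesin of the sperm flagellum's central apparatus, had 4.11, 4.92 and 4.64 CPM at 10.5 dpp and 395, 223 and 387 CPM at 22.5 dpp. The groups were far apart, with replicate 2 of 22.5 dpp the lowest of its group, and the log2 difference was 6.52 (SE 0.45, adjusted p = 2.15e-09, edgeR). Kif19a, a depolymerase that sets the length of motile cilia, went from 1.39, 1.39 and 2.15 CPM to 43.3, 27.5 and 47.1 CPM, a log2 difference of 4.89 (SE 0.40, adjusted p = 1.52e-08, edgeR). Kif6, another kinesin of motile cilia, went from 3.88 to 4.06 CPM to 18.1 to 25.3 CPM, a difference of 2.79 (SE 0.25, adjusted p = 5.57e-08, edgeR). No library of 10.5 dpp reached the 22.5 dpp range for any of these genes.

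The intraflagellar transport motor showed unequal steps in its subunits over this interval. Kif3b rose by a log2 difference of 2.33, from 78.8 to 84.6 CPM to 267 to 366 CPM, and Kif3a by 0.87, a call lost with scaling by library size alone. Kif27, a kinesin of motile cilia, rose by 2.94, and Kif17, a motor that shuttles between nucleus and cytoplasm in spermatids, by 1.90. Kif2b, a microtubule depolymerase related to Kif2c, had 9, 2 and 15 counts at 10.5 dpp and 2766, 703 and 2222 counts at 22.5 dpp, which is 0.06 to 0.27 CPM against 15.4 to 73.0 CPM. Its relative Kif2a rose by 1.64, and Kif24, which acts at centrioles, by 1.71.

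Among kinesins that fell, Kif4, a chromokinesin of the central spindle, had 57.4, 60.7 and 61.0 CPM at 10.5 dpp and 16.5, 23.9 and 17.1 CPM at 22.5 dpp. The difference was -1.35 on the log2 scale (SE 0.19, adjusted p = 1.13e-05, edgeR). Kif1a, the axonal carrier of synaptic vesicle precursors, fell from 102, 104 and 116 CPM to 15.8, 26.5 and 14.4 CPM (-2.23, SE 0.37, adjusted p = 6.25e-05, edgeR). The 6 neuron markers summed to 11.1 to 14.2 CPM at 10.5 dpp and 4.09 to 6.89 CPM at 22.5 dpp, and to no more than 22.3 CPM in any library of the fit. Of the 5 tested, 3 were called lower and 1 higher, with a median of -1.78. The part of these markers in the fall of Kif1a was not tested. Kif7, a regulator of Hedgehog signalling in the primary cilium, fell from 42.8 to 44.9 CPM to 12.1 to 16.3 CPM (-1.39, SE 0.30, adjusted p = 0.000644, edgeR). The spindle motor Kif11 and the cytokinesis motor Kif23 fell by smaller amounts, -0.60 and -0.43, whereas Kif15, which backs up Kif11 on the spindle, and Kif20a, which acts in cytokinesis, rose by 0.95 and 0.68. The Kif20a call was lost with scaling by library size alone. Of 15 other cell division genes, 8 rose and 1 fell, with a median of 0.67.

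From 22.5 to 36.5 dpp, as spermatids elongate, 8 kinesins were called higher (23.3% of all genes) and 8 lower (27.5%), 16 of 37 in all. With RLE factors the calls were 10 higher and 6 lower, and with library size alone 5 higher and 18 lower. Without 6.5 dpp CSF replicate 3, which enters here only through the shared estimate of spread, 24 were called, and without 36.5 dpp replicate 1, 10. Only 2 of 6 spermatid kinesins rose further, Kif17 and Kif27, whereas 2 mitotic kinesins rose (Kif2c and Kif18b) and 3 fell (Kif4, Kif11 and Kif20b). All 10 spermatid markers were called higher.

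Kif2c, the centromeric microtubule depolymerase also known as MCAK, had 96.9, 85.1 and 99.2 CPM at 22.5 dpp and 254 and 321 CPM at 36.5 dpp, so that both of the older libraries lay above all of the younger (2.12, SE 0.26, adjusted p = 6.33e-06, edgeR). It was between 79.3 and 102 CPM in every library of 6.5 and 10.5 dpp. It made up 40.1% and 43.6% of the summed mitotic CPM in the 36.5 dpp libraries, the largest share of any mitotic kinesin there. Kif17 went from 43.3, 15.2 and 45.1 CPM to 263 and 502 CPM (3.95, SE 0.64, adjusted p = 0.000108, edgeR). Kif26b, an atypical kinesin at low level, went from 0.70 to 1.21 CPM to 1.51 and 2.67 CPM (1.77, SE 0.39, adjusted p = 0.00114, edgeR). Kif2b reached 544 and 718 CPM, a log2 difference of 4.04. Kif9 (332 and 480 CPM at 36.5 dpp) and Kif3b (209 and 362) overlapped with their 22.5 dpp ranges and were not called.

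On the falling side, Kif4 went to 4.25 and 6.04 CPM (-1.37, SE 0.22, adjusted p = 0.000113, edgeR). Kif5b fell from 110, 180 and 92.0 CPM to 28.4 and 37.7 CPM (-1.42, SE 0.31, adjusted p = 0.00119, edgeR). Kif11 fell from 11.4 to 18.4 CPM to 5.20 and 6.10 CPM (-0.89, SE 0.23, adjusted p = 0.00380, edgeR), a call lost without 36.5 dpp replicate 1. Kif1c and Kif21a fell by 1.18 and 1.28 on the log2 scale, whereas Kif21b, which regulates microtubule growth, rose by 1.42 and Kif5c by 0.96. Both of these rises were lost with library size alone, as was that of Kif18b.

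**Figure D3:**
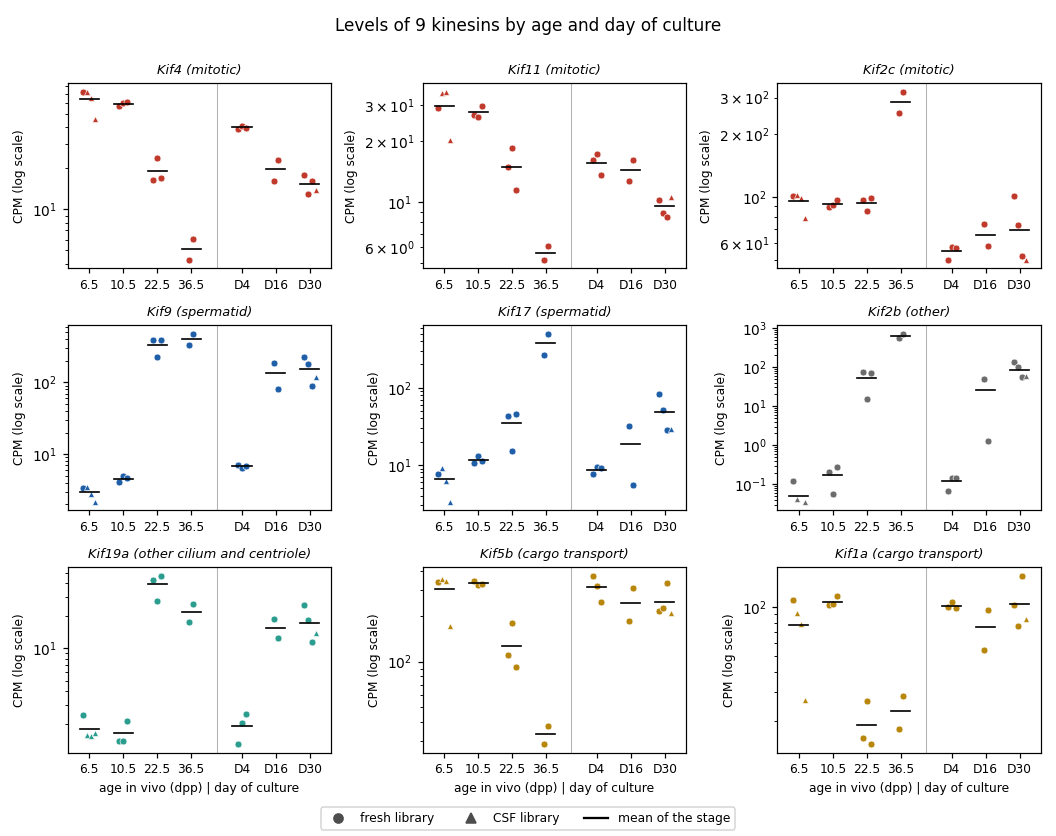
CPM on a log axis is plotted against age in vivo (left of the grey line, in dpp) and day of culture for 9 kinesins, where circles are fresh and triangles CSF libraries, black bars are stage means, and the 6.5 dpp CSF library with no Kif2b count cannot be drawn. Kif2b, Kif9, Kif17 and Kif19a climb at 22.5 dpp, Kif4 and Kif11 descend, and Kif2c stands at 254 and 321 CPM at 36.5 dpp only. In every culture library, Kif5b and Kif1a lie above all libraries of 22.5 and 36.5 dpp.

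The mitotic group was lower after the first 4 days of culture than at 6.5 dpp, a comparison in which age also differs and in which 3 of the 4 libraries of 6.5 dpp, but none of D4, had been frozen. From 6.5 dpp to D4, 7 kinesins were called lower (10.1% of all genes), all of them mitotic, and 3 higher (10.8%). The median over the 11 mitotic kinesins was -0.65, against -0.03 over all genes, and 11 of 15 division genes were also lower. Kif22, a chromokinesin, fell from 62.1 to 92.3 CPM to 41.7 to 49.8 CPM (-0.81, SE 0.15, adjusted p = 0.000894, edgeR). Kif11 went from 20.3 to 35.1 CPM to 13.6 to 17.3 CPM (-0.89, SE 0.19, adjusted p = 0.00241, edgeR), and Kif18b, which acts on astral microtubules, from 34.1 to 63.8 CPM to 24.1 to 27.3 CPM (-1.03, SE 0.22, adjusted p = 0.00265, edgeR). In all 3 the lowest 6.5 dpp value was that of CSF replicate 3, and no D4 library reached it.

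The fall of Kif18a, which caps the growth of kinetochore microtubules, depended on the libraries used. Its levels at 6.5 dpp were 48.4, 49.5, 89.1 and, in CSF replicate 3, 159 CPM, against 30.8 to 40.6 CPM at D4, and without CSF replicate 3 the log2 difference went from -1.27 (adjusted p = 0.0483, edgeR) to -0.72 (adjusted p = 0.209, edgeR). Leaving out 1 library at a time gave adjusted p values from 0.0250 to 0.209, and with fresh libraries only the difference was -0.36 (adjusted p = 0.842, edgeR). Without CSF replicate 3, 9 mitotic kinesins were lower, without any 1 of the D4 libraries 6 kinesins in all were called, and with fresh libraries only, which leaves 1 at 6.5 dpp, 2 were. The 3 kinesins that rose were Kif6 (0.99, SE 0.23, adjusted p = 0.00427, edgeR), Kif26b (1.20, SE 0.32, adjusted p = 0.0121, edgeR) and Kif9 (1.23, SE 0.34, adjusted p = 0.0145, edgeR), the last from 2.15 to 3.45 CPM to 6.47 to 7.17 CPM. With the left-out 6.5 dpp library kept, the signs of Kif6 and Kif9 turned (-0.24 and -2.97) and neither was called.

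From D4 to D16, 6 kinesins rose (18.4% of all genes) and 4 fell (5.48%). The rises were Kif9, Kif6, Kif27 and Kif3b of the spermatid group, with Kif19a and Kif2b. Kif9 went from 6.47 to 7.17 CPM to 189 and 82.1 CPM (4.38, SE 0.42, adjusted p = 2.91e-07, edgeR). Kif19a went from 1.30 to 2.45 CPM to 18.6 and 12.4 CPM (3.05, SE 0.39, adjusted p = 8.73e-06, edgeR). Kif2b had 3, 6 and 10 counts at D4 and 2026 and 58 counts at D16, or 50.9 and 1.27 CPM (7.78, SE 1.17, adjusted p = 6.06e-05, edgeR). Replicate 1 was the higher of the D16 libraries for all 3, and for Kif2b the replicates differed more than for any other kinesin above the floor at that stage. The difference of Kif2b was 3.37 without replicate 1 and 8.75 without replicate 2, called both times.

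The falls from D4 to D16 were those of Kif4 (39.2 to 41.1 CPM against 16.2 and 23.2, -0.98, SE 0.22, adjusted p = 0.00266, edgeR), Kif23 (-0.70, SE 0.18, adjusted p = 0.00680, edgeR), Kif26b (-1.47, SE 0.40, adjusted p = 0.0119, edgeR) and Kif7 (-0.96). Without D16 replicate 1, 4 kinesins in all were called, and without replicate 2, 12. With the left-out 6.5 dpp library kept in the fit, 0 were called. From D16 to D30, 0 kinesins were called either way by edgeR or DESeq2, 1.46% of all genes being called higher and 0.332% lower. Unadjusted p was under 0.05 for 2 kinesins with each tool, and without D16 replicate 1 edgeR called 2.

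Few kinesins were called in D4 explants against testes of the matching age: 0 were higher (4.92% of all genes) and 3 lower (3.18%). These were Kif28 at 3 to 6 counts against 7 to 19 (-1.69, SE 0.42, adjusted p = 0.0166, edgeR), Kif11 (-0.73, SE 0.20, adjusted p = 0.0263, edgeR) and Kif18b (-0.82, SE 0.23, adjusted p = 0.0336, edgeR). The mitotic median was -0.49 and the spermatid median 0.04, against -0.01 over all genes. DESeq2 called 6 kinesins lower, all of them mitotic. The summed mitotic CPM was 504 to 548 in the D4 libraries against 757 to 793 in those of 10.5 dpp. The fit of these 2 stages alone called 18, among them 10 of the 11 mitotic kinesins, all 10 lower. Leaving out 1 of the libraries of 10.5 dpp or D4 gave 0 or 1.

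At D16 against 22.5 dpp, 3 kinesins were higher (14% of all genes) and 10 lower (11.8%). Lower were 3 spermatid kinesins (Kif6, Kif9 and Kif27), 4 mitotic kinesins (Kif18b, Kif20a, Kif22 and Kif23), Kif19a and Kif24 of the cilium and centriole group, and Kif2a. The spermatid median was -1.10, against -0.08 over all genes. Kif6 had 11.5 and 11.1 CPM at D16 and 18.1 to 25.3 CPM at 22.5 dpp (-1.13, SE 0.27, adjusted p = 0.00783, edgeR). Kif19a had 18.6 and 12.4 CPM against 27.5 to 47.1 (-1.52, SE 0.39, adjusted p = 0.0115, edgeR) and Kif9 had 189 and 82.1 CPM against 223 to 395 (-1.48, SE 0.41, adjusted p = 0.0165, edgeR). For these 3 genes the D16 libraries lay below all of 22.5 dpp. The difference of Kif9 was -2.23 without D16 replicate 1 and -0.98, not called, without replicate 2.

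The 3 kinesins higher at D16 were cargo motors. Kif1a had 54.1 and 96.1 CPM against 14.4 to 26.5 at 22.5 dpp (1.85, SE 0.40, adjusted p = 0.00370, edgeR). Kif3c was higher by 0.96 (SE 0.32, adjusted p = 0.0375, edgeR) and Kif5b by 0.81 (SE 0.29, adjusted p = 0.0486, edgeR), the last going to 0.44 without D16 replicate 2. The 6 neuron markers summed to 7.97 and 11.8 CPM at D16 and 4.09 to 6.89 CPM at 22.5 dpp. Of these, 2 of 5 tested were called higher and 1 lower, and Stmn2 was at the floor at D16. Sertoli cell markers (8 genes) summed to 3613 and 4157 CPM against 1352 to 2181, with 6 of 8 called higher and 1 lower. Endothelial markers (4 genes) summed to 195 and 259 CPM against 37.6 to 59.8, with 3 of 4 called higher. Of 8 spermatogonia markers 3 were higher, and 5 of 5 Leydig cell markers were lower. The part of these markers in the kinesin differences was not tested. Without D16 replicate 2 no kinesin was called, and without replicate 1 or replicate 3 of 22.5 dpp 3 were. The calls were 2 higher and 14 lower with RLE factors, and 3 higher and 5 lower with library size alone.

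The largest number of calls was at D30 against 36.5 dpp, with 7 kinesins higher (32.4% of all genes) and 19 lower (35%). All 6 spermatid kinesins were lower (median -1.62, against -0.03 over all genes), 7 of 11 mitotic kinesins were lower and 1 higher, and 5 of 12 cargo transport kinesins were higher and 2 lower. With library size alone the calls were 10 higher and 10 lower, 4 spermatid kinesins stayed lower, and the signs of Kif22 and Kif23 turned to 0.13 and 0.21. All 10 spermatid markers were called lower at D30, and 7 of 8 Sertoli cell markers higher. Called higher too were 6 of 8 spermatogonia, 4 of 5 peritubular, 4 of 4 macrophage and 3 of 4 endothelial markers, with 1 endothelial marker lower. Of the Leydig cell markers, 5 of 5 were lower. The part of these markers in the kinesin differences was not tested. Without 36.5 dpp replicate 2, 4 of the spermatid kinesins were called.

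Kif17 stood at 82.1, 51.9 and 28.2 CPM in the fresh D30 libraries and 29.5 CPM in the CSF library, against 263 and 502 CPM at 36.5 dpp (-3.62, SE 0.57, adjusted p = 3.54e-05, edgeR). Kif2c had 101.1, 73.6, 52.3 and 49.9 CPM against 254 and 321 (-2.68, SE 0.24, adjusted p = 1.20e-07, edgeR), and Kif18b had 26.6 to 41.4 CPM against 49.0 and 68.7 (-1.51, SE 0.23, adjusted p = 2.91e-05, edgeR). The ranges did not overlap for any of the 3. Kif2b had 54.7 to 135 CPM against 544 and 718 (-3.49 on the log2 scale), Kif27 58.0 to 149 CPM against 247 and 416 (-2.44), and Kif9 89.4 to 225 CPM against 332 and 480 (-2.03). Fresh replicate 1 had the highest value of the D30 libraries for each of Kif17, Kif2c, Kif2b, Kif27 and Kif9.

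On the other side, Kif5b had 217, 227, 335 and 212 CPM at D30 against 28.4 and 37.7 CPM at 36.5 dpp (2.26, SE 0.31, adjusted p = 1.03e-05, edgeR). Kif21a, a regulator of microtubule growth known from neurons, had 126 to 232 CPM against 18.7 and 27.8 (2.13, SE 0.43, adjusted p = 0.000369, edgeR). Kif4 had 13.0 to 18.0 CPM against 4.25 and 6.04 (0.92, SE 0.21, adjusted p = 0.00101, edgeR), the only mitotic kinesin that was higher. Kif1a, Kif3c, Kif1c and Kif26a were higher by 1.53, 1.44, 1.09 and 1.43, the last a call lost with RLE factors.

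**Figure D4:**
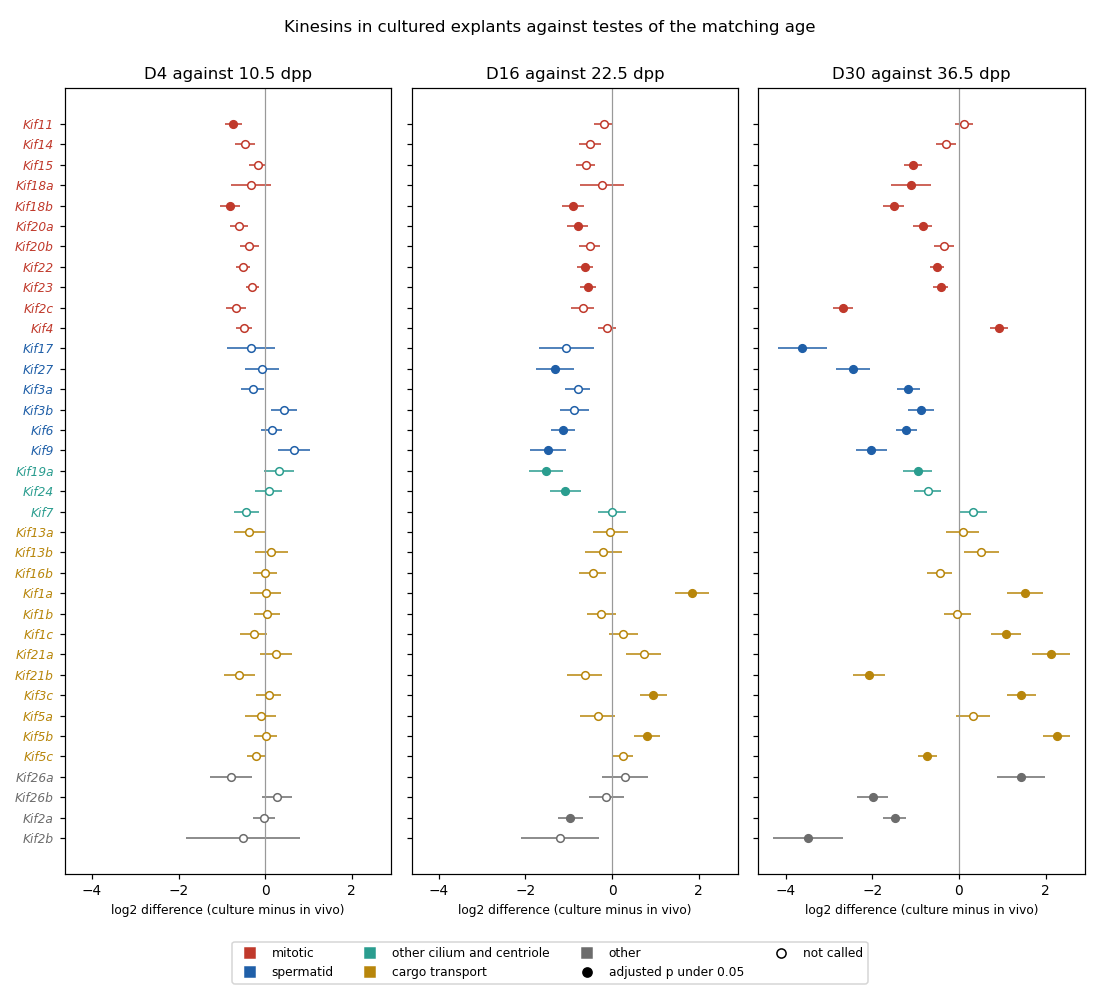
Log2 differences from the edgeR fit, culture minus in vivo (horizontal axis, bars are SE), are plotted for the 36 kinesins above the floor in all stages, with a panel per matched age and colours by role, and filled points have an adjusted p under 0.05. At D4 most points sit near 0, at D16 the spermatid kinesins lie left of it, and at D30 they run from -3.62 to -0.87 while Kif5b, Kif21a and Kif1a lie at 1.53 or more.

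The difference between the culture effects at neighbouring ages was tested as a contrast of its own. From D4 to D16, the log2 difference of culture against in vivo was higher at D16 than at D4 for 1 kinesin (5.26% of all genes) and lower for 3 (4.36%). Kif1a moved by 1.84 (SE 0.53, adjusted p = 0.0381, edgeR), Kif9 by -2.14 (SE 0.54, adjusted p = 0.0213, edgeR), Kif6 by -1.28 (SE 0.36, adjusted p = 0.0334, edgeR) and Kif19a by -1.84 (SE 0.52, adjusted p = 0.0351, edgeR). At D4 against 10.5 dpp the differences of Kif9, Kif6 and Kif19a were 0.67, 0.15 and 0.32 and not called, and at D16 against 22.5 dpp all 3 genes were lower in culture. Leaving out 10.5 dpp replicate 1, 22.5 dpp replicate 1 or 3, or D16 replicate 2 removed all of these calls, and leaving out 10.5 dpp replicate 2 or 3 or any D4 library left 1 or 2.

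From D16 to D30, 2 kinesins moved up (11.5% of all genes) and 4 down (8.63%). Kif5b moved by 1.45 (SE 0.42, adjusted p = 0.0222, edgeR) and Kif4 by 1.03 (SE 0.30, adjusted p = 0.0232, edgeR). Kif2c moved by -2.01 (SE 0.35, adjusted p = 0.000948, edgeR), Kif26b by -1.86 (SE 0.54, adjusted p = 0.0222, edgeR), Kif17 by -2.56 (SE 0.83, adjusted p = 0.0382, edgeR) and Kif5c by -0.99. Kif17 stood at 31.9 and 5.53 CPM in the D16 libraries, and its value was -0.75 and not called without D16 replicate 1 and -3.33 without replicate 2. It was also not called without 22.5 dpp replicate 2, 36.5 dpp replicate 2, D30 fresh replicate 3 or the D30 CSF library. The count was 2 without D16 replicate 1 and 3 without 22.5 dpp replicate 2 or 36.5 dpp replicate 2. With library size alone 3 kinesins moved up and 2 down. Kif2c, Kif17 and Kif26b had risen from 22.5 to 36.5 dpp in vivo, and none of them was called between D16 and D30.

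Of the remaining kinesins, Kif14, which acts in cytokinesis, Kif1b, a carrier of mitochondria and vesicles, Kif13b, a vesicle motor, and Kif16b, which moves early endosomes, were not called in any comparison. Mean levels of Kif14 were 37.2 ± 3.03 CPM (SD, n = 3) at 10.5 dpp and 12.0 ± 3.66 CPM (n = 2) at 36.5 dpp. Those of Kif1b were 197 ± 13.7 and 75.8 ± 30.5 CPM and those of Kif13b 129 ± 4.42 and 36.5 ± 14.6 CPM at the same ages, lower in both older libraries than in any of 10.5 dpp. Kif16b moved least of these, with stage means between 42.7 and 64.1 CPM. Kif13a, which carries vesicles from the trans-Golgi network, was lower at 22.5 than at 10.5 dpp (-0.97 on the log2 scale, means of 16.9 and 40.3 CPM), and Kif5a, a neuronal heavy chain of conventional kinesin, lower at 36.5 than at 22.5 dpp (-1.05, means of 5.74 and 17.2 CPM).

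For kinesins described above by their differences alone, mean CPM at 10.5, at 22.5 and at 36.5 dpp and then in D30 explants was as follows. Of the mitotic group, Kif15 had 50.0, 78.7, 57.3 and 42.4 CPM, Kif20b had 79.2, 80.7, 36.2 and 44.3 CPM and Kif23 had 136, 82.3, 44.7 and 51.6 CPM. Kif3a had 84.9, 126, 106 and 72.8 CPM, Kif24 had 25.3, 67.3, 27.9 and 26.2 CPM and Kif2a had 93.0, 234, 267 and 147 CPM. These 3 and Kif15 had lower means at D30 than at 36.5 dpp.

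Among cargo motors, Kif1c, which carries vesicles, had 181, 67.0, 20.5 and 68.6 CPM in that order, and Kif3c, a relative of Kif3b, had 24.7, 8.04, 3.21 and 13.7 CPM. Both had D30 means above those of 36.5 dpp, as did Kif26a, an atypical kinesin without motor activity, at 74.7, 21.8, 4.73 and 20.1 CPM. Kif5c, a neuronal heavy chain of conventional kinesin, had 43.4, 20.3, 27.4 and 25.7 CPM and Kif21b had 78.8, 41.9, 78.8 and 29.1 CPM, with D30 means below those of 36.5 dpp.

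Genes that work with these kinesins but are not members, 12 in all, gave 3 higher and 3 lower from 10.5 to 22.5 dpp (33.6% and 27.9% of all genes), 4 and 3 from 22.5 to 36.5 dpp (23.3% and 27.5%), and 1 and 6 at D30 against 36.5 dpp (32.4% and 35%). Kifap3, the subunit that joins Kif3a and Kif3b, had mean levels of 58.1 CPM at 10.5 dpp, 116 at 22.5 dpp and 389 at 36.5 dpp, rising by 1.30 and 2.25 on the log2 scale, whereas Kif3a and Kif3b were not called over the latter step (0.26 and 0.28). At D30 Kifap3 had a mean of 92.1 CPM (-2.71 against 36.5 dpp). Klc3, the kinesin light chain of the sperm tail, rose by 3.12 from 22.5 to 36.5 dpp and was lower by 2.96 on the log2 scale at D30. Klc1, a light chain of conventional kinesin, fell by 1.09 over the same step in vivo, as the heavy chain Kif5b did, and was higher by 0.71 at D30. The carboxy-terminal motor Kifc1, which acts in spindles and in spermatid nuclei, had a mean of 14.4 CPM at 10.5 dpp and 3.94 CPM at 36.5 dpp.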

How the data were processed

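RNA was measured by polyA-selected, stranded libraries read in 50-base runs. The authors deposited 1 table of raw read counts per gene, made with STAR 2.7.3a on GRCm38 and HTSeq 0.12.4 in intersection-nonempty mode per the study's methods and the submitters' processing notes (the strand setting is not given in the sources used here). Gene IDs were paired with symbols through RefSeq (GRCm38.p6, 27373 of 27466 IDs matched). Of 23 columns, an identical pair was counted as 1 library and 6.5 dpp fresh replicate 1 was left out, which gave 21 libraries. Totals of 28351546 to 69029328 counts set the depth, and 3 counts was taken as the detection floor.

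Counts were filtered with filterByExpr, scaled by TMM and tested with edgeR 4.0.16 (R 4.3.3), in a quasi-likelihood F test over all stages in 1 model with Benjamini-Hochberg adjustment. SE is the absolute log2 difference divided by the square root of F. The procedure was tested on simulated data. CPM are counts over the library total. Exon lengths are GENCODE M21 exon unions. DESeq2 1.42.0 was an alternative, with other scalings, filters, thresholds and sample sets. Tables and plots used python 3.11.15, pandas 2.3.3 and matplotlib 3.10.9.

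The labels name the replicates as biological, but the design text gives 2 CSF samples of 6.5 dpp where 3 are labelled, and p-values measure the spread between these samples. The members, roles and gene lists were chosen with earlier results of these data known. Every kinesin has a level or is counted at the floor. Full statistics are given per comparison for at most 3 called kinesins in each direction, those of smallest adjusted p, and other values were added as examples of groups.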

Additional observations from a re-analysis of the deposited data

Results flagged for a closer look

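In groups of 4 libraries, 76 combinations of a stage with a kinesin or with the log2 ratio of the sums could be examined. A library far from the rest was found in 8, all of them kinesins, where chance alone gives about 1 in 20 groups. Kinesins measured in the same libraries are not independent, so that rate is only a rough guide. Of these, 6 lay in 6.5 dpp CSF replicate 3, always as the lowest value: Kif5b at 173 CPM, Kif2c at 79.3, Kif22 at 62.1, Kif18b at 34.1, Kif13a at 10.7 and Kif24 at 10.1 CPM. The others were Kif19a, highest in 6.5 dpp fresh replicate 2 at 2.40 CPM, and Kif5b, highest in D30 fresh replicate 3 at 335 CPM.

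The culture effect differed between D16 and D4, by the test of the difference itself, for Kif1a (1.84 on the log2 scale), Kif6 (-1.28), Kif9 (-2.14) and Kif19a (-1.84). Between D30 and D16 it differed for Kif5b (1.45), Kif4 (1.03), Kif5c (-0.99), Kif2c (-2.01), Kif26b (-1.86) and Kif17 (-2.56).

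The left-out 6.5 dpp fresh replicate 1 had a summed level of 816 CPM over the 6 spermatid kinesins and 103 CPM over the 3 other kinesins of cilia and centrioles, both above every other library of 6.5 dpp.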

How the results depend on the processing

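Counts below are of called kinesins. Of 48 log2 differences given in full, 918 of the values with 1 library left out kept direction and call and 88 lost the call, and under other settings 381 kept both, 48 lost the call and 2 reversed: with 6.5 dpp fresh replicate 1 kept, Kif6 and Kif9 in D4 against 6.5 dpp were -0.24 and -2.97. The cause was not tested. With that library kept, counts were 6 for D4 against 6.5 dpp, 0 for D16 against D4, 2 for D16 against 22.5 dpp, 0 for D4 against 10.5 dpp, 0 for the change of culture effect from D4 to D16 and 3 from D16 to D30. With a log2 fold change of 2 and an adjusted p of 0.001, they were 7 for 22.5 against 10.5 dpp, 2 for 36.5 against 22.5 dpp, 0 for D4 against 6.5 dpp, 3 for D16 against D4, 0 for D4 against 10.5 dpp, 0 for D16 against 22.5 dpp, 8 for D30 against 36.5 dpp, and 0 and 1 for the changes of culture effect. Library size only gave 1 for 10.5 against 6.5 dpp, 8 for D16 against 22.5 dpp and 6 for D4 against 10.5 dpp, and DESeq2 gave 1 for 10.5 against 6.5 dpp and 6 for D4 against 10.5 dpp. Fresh libraries only gave 2 for D4 against 6.5 dpp. A fit of the stages compared alone gave 18 for D4 against 10.5 dpp, 2 for D16 against 22.5 dpp, and 8 and 1 for the changes of culture effect.

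With 1 library left out, counts ran from 0 to 0 for 10.5 against 6.5 dpp, 19 to 26 for 22.5 against 10.5 dpp, 10 to 24 for 36.5 against 22.5 dpp, 6 to 12 for D4 against 6.5 dpp, 4 to 12 for D16 against D4, 0 to 2 for D30 against D16 (2 without D16 replicate 1), 0 to 5 for D4 against 10.5 dpp (5 without D30 fresh replicate 1), 0 to 17 for D16 against 22.5 dpp, 19 to 27 for D30 against 36.5 dpp, and 0 to 6 and 2 to 8 for the changes of culture effect. The in vivo log2 ratio of mitotic to spermatid kinesins was 2.32 to 2.63 for 6.5 dpp, 1.88 to 1.89 for 10.5 dpp, -0.67 to -0.32 for 22.5 dpp and -1.38 to -0.85 for 36.5 dpp, and the culture ratio 1.28 to 1.37 for D4, -0.18 to 0.28 for D16 and -0.56 to -0.40 for D30. It was 1.94 at 6.5 dpp with replicate 1 kept. Per kilobase it was 1.52 at 10.5 dpp, 0.97 at D4 and -0.73 at D30, and from medians -1.19 for 22.5 dpp, -2.99 for 36.5 dpp, 1.64 for D4, -0.55 for D16 and -1.05 for D30.

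Same-numbered libraries did not deviate together as a set (median correlation 0.009 over 64 pairs, 16 over 0.1, against -0.007 over 123 other pairs). Their correlations ran from -0.53 to 0.66. With 2 to 4 libraries per stage, this cannot show whether some same-numbered libraries share more than a number. With the replicate block, 3 kinesins were called for the change of culture effect from D16 to D30 in place of 6, and no other count moved by over 1.5 times.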
